A study of Mus musculus with 4 samples.

Results

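The 57 genes described here are textbook genes of cell division, read as 2 sets: 25 genes of DNA replication in S phase and 32 genes of G2 and mitosis. They were picked by symbol from the 27179 genes of the count table, where all 57 were found. All 57 were among the 11172 genes that passed the filter on low counts. These genes and the lists below were chosen with earlier results of these data known. RNA was sequenced from Treg cells (CD4+Foxp3+ regulatory T cells), which hold back immune responses. They came from the spleen together with peripheral lymph nodes of unchallenged C57BL/6 mice. There were 2 libraries labelled P65KO, from cells described as deficient in RelA (p65), an NF-kB subunit that binds DNA and activates transcription, and 2 libraries labelled WT. The labels give no age, no name for the deleting allele and no promoter that drives it, and no label says that the replicates came from separate mice, so the p-values measure only how these libraries spread, in part perhaps for technical reasons.

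Before a cell divides, the MCM helicase is loaded on replication origins, CDC45 and GINS switch it on, and polymerases, the PCNA clamp and ligase copy the strands from deoxynucleotides made by ribonucleotide reductase and its partners. E2F factors drive these genes at the G1/S border. Later ones, switched on by B-MYB, FOXM1 and the MuvB complex through the promoter element called CHR (cell cycle genes homology region), make the cyclin B and CDK1 kinase, the kinetochore, the spindle and the machinery of anaphase. Most T cells in a resting lymphoid organ do not cycle, while Treg cells of the effector state are known to divide more than those of the naive-like state.

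In P65KO Treg cells, 17 of the 57 genes fell and 0 rose, among them Mki67, Top2a, Cdk1, both B-type cyclins, Aurkb and Melk in the mitosis set and Mcm6, Lig1, Rrm1, Rrm2 and Tk1 in the replication set. A gene is said to fall or rise where the quasi-likelihood F test of edgeR, adjusted by Benjamini-Hochberg over the 11172 genes, gave a p below 0.05. The mitosis set held 12 of the falls among its 32 genes and the replication set 5 among its 25, while 20.7% of all tested genes were called, 11.7% lower and 9% higher. Of the 9710 tested genes within the 57 genes' range of mean expression, 11.6% fell. Without adjustment, p was below 0.05 for 22 mitosis genes and 9 replication genes, against 32.6% of tested genes, and none of these was higher in P65KO; DESeq2 (5.25% of tested genes higher) and limma-voom (8.57%) likewise called 0 of the 57 higher. The median log2 fold change, P65KO over WT, was -0.70 for the mitosis set and -0.43 for the replication set, where all tested genes had 0.00. In bulk libraries, fewer dividing cells and less of each RNA per dividing cell cannot be told apart.

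The 4 libraries held 4513863 to 4624230 counts, with a correlation of log2 CPM (counts scaled to a common library size) across genes of 0.982 within P65KO, 0.988 within WT and at most 0.936 between the groups. Rela itself had 181 and 201 CPM in the P65KO libraries against 190 and 173 CPM in the WT libraries (edgeR adjusted p = 0.662). A count over the whole gene checks no deletion of a part of it, so the group names are those of the labels. Of 7 CD4 Treg identity genes, 2 fell (Ctla4 and Ikzf2), 1 rose (Il2ra) and 4 did not pass, Foxp3 among them, and the 7 summed to 4035 and 4393 CPM in P65KO and to 4718 and 4734 CPM in WT. Of markers of other cells, 8 of the 12 tested myeloid and dendritic genes (of 16 listed) rose and 0 fell, and the listed genes summed to 1330 and 489 CPM in P65KO and to 251 and 336 CPM in WT. The 4 tested erythroid and platelet genes (of 10 listed) rose, and this list summed to 117 and 194 CPM in P65KO and to 22.1 and 28.4 CPM in WT. The 2 tested gamma-delta T cell genes (of 3 listed) rose. The 2 tested B cell genes (of 8 listed) fell, and this list summed to 24.9 and 15.5 CPM in P65KO and to 49.7 and 53.4 CPM in WT. In the CD8 T cell, thymocyte, and stromal and endothelial lists 1 gene each was tested, and of these the stromal and endothelial gene rose. Of the germinal centre B cell and plasmablast genes, which mark cells that also divide, 2 of 4 tested fell (S1pr2 and Irf4, the second of which effector Treg cells also express) and 0 rose, and the listed genes summed to 383.5 and 241 CPM in P65KO and to 321 and 329 CPM in WT, P65KO replicate 2 being lowest. Of the NK and innate lymphoid genes, 2 of 4 tested fell and 0 rose. All 8 effector Treg markers fell, to a sum of 157 and 141 CPM in P65KO against 1241 and 1337 CPM in WT, and all 6 naive and central T cell markers rose. All 5 sex-linked genes also separated the groups. Xist fell, at 0.00 and 0.44 CPM in P65KO against 107 and 131 CPM in WT, and the other 4 rose. A difference of sex and the genotype label therefore cannot be told apart here. The part of any of these differences in the results below was not tested.

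**Figure D1:**
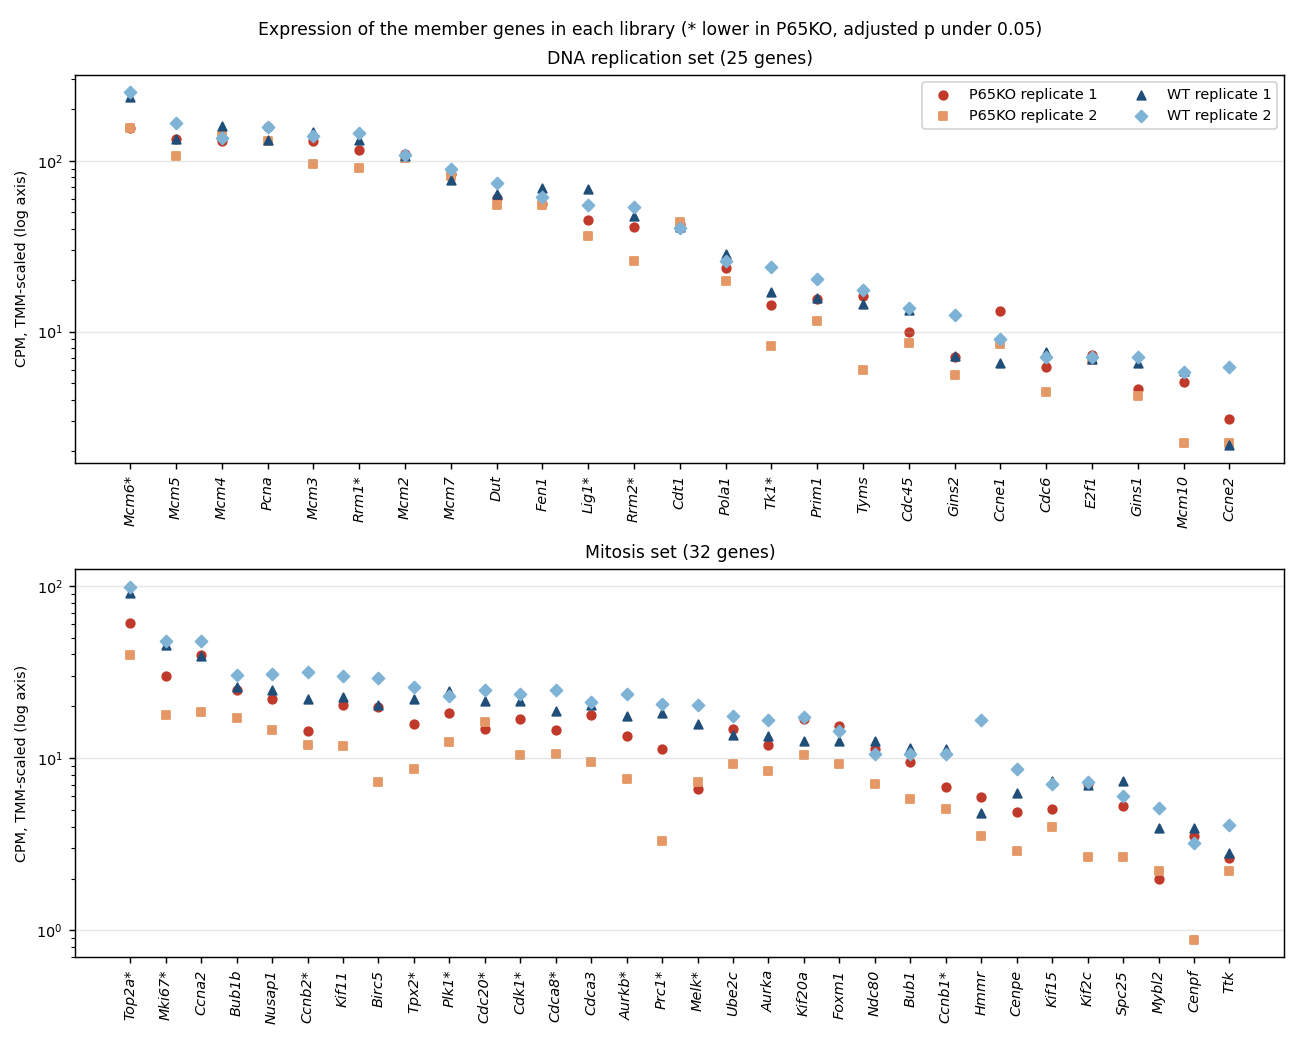
Expression of each gene in each library, in CPM on a log axis, for the replication set (top) and the mitosis set (bottom), ordered by level. Circles and squares are the 2 P65KO libraries and triangles and diamonds the 2 WT libraries, and a star marks the 17 genes that fell. Both P65KO libraries lie below both WT libraries for 39 of the 57 genes, against 30.9% of all tested genes.

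Promoter sequences are shown because many members share motifs in them. The genes were chosen by symbol and not by motif. Yet E2F and CHR are the elements by which such genes are known to be driven, so their shares describe the sets and are not independent support. RefSeq windows of GRCm38.p6 ran from 250 bases before to 50 after a listed start of the gene. They were held for 48 members, 21 of the replication set and 27 of the mitosis set. Mcm7, Fen1, Lig1 and Prc1 had several windows, and a gene was counted where any of its windows matched. The listed start need not be the end of the gene. The Kif2c window, chr4:117178723-117179022, lies inside the gene, chr4:117159633-117182624. The Lig1 window with an E2F match, chr7:13278576-13278875, also lies inside its gene, chr7:13277175-13311426. The stretches below run from 150 bases before the start to 30 after it, 5′ to 3′ on the strand of the gene. Capitals mark matches on either strand of the CHR core TTTGAA, the E2F motif TTTNNCGC and the kappaB consensus. The first 5 belong to mitosis genes that fell and carry CHR matches: Top2a at chr11:99024160-99024339 (minus strand), Cdk1 at chr10:69352883-69353062 (minus), Ccnb2 at chr9:70421525-70421704 (minus), Prc1 at chr7:80294301-80294480 (plus) and Mki67 at chr7:135716350-135716529 (minus).
Top2a: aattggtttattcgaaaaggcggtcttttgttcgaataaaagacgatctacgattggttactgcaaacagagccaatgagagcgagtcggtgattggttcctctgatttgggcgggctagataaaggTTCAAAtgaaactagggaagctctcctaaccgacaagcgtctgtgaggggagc
Cdk1: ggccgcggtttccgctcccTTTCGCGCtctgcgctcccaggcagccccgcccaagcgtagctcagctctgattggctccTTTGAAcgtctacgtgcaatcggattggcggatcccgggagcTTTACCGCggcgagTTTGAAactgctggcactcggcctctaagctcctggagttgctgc
Ccnb2: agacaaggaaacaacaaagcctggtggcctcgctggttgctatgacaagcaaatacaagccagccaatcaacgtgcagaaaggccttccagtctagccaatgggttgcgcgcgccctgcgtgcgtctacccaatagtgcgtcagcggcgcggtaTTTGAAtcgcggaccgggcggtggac
Prc1: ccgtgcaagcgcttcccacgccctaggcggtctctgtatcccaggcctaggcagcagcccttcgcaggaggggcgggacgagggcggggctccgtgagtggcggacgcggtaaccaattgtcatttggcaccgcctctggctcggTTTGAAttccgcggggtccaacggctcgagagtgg
Mki67: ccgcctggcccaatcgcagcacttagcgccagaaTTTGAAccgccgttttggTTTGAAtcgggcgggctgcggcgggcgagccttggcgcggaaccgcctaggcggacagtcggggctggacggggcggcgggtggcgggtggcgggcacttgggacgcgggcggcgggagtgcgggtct
The next 3 are shown for contrast. Melk, at chr4:44300767-44300946 (plus), fell and has no match. Mcm6, at chr1:128359676-128359855 (minus), is the replication gene with the smallest adjusted p and carries E2F matches. Birc5, at chr11:117849087-117849266 (plus), did not pass the test and is the mitosis gene whose window holds kappaB matches.
Melk: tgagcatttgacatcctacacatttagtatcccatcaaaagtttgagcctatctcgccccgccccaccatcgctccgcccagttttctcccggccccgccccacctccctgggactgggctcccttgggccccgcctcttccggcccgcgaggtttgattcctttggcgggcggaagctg
Mcm6: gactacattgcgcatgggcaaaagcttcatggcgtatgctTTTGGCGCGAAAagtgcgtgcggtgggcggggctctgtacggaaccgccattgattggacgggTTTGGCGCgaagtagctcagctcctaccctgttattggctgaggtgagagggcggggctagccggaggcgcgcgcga
Birc5: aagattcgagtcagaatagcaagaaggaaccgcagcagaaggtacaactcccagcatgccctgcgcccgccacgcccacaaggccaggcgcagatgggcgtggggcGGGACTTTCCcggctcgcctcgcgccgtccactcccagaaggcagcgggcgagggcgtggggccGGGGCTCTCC

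The CHR core stood in the windows of 20 of 27 mitosis genes (74.1%) and of 3 of 21 replication genes (14.3%), against 14.2% of the 8624 tested genes with a window. Between 60 bases before the start and 50 after it, 18 of 27 mitosis genes (66.7%) had a match, against 4.19% of tested genes. The E2F motif was found for 9 of 21 replication genes (42.9%), for 2 of 27 mitosis genes (7.41%), Cdk1 and Kif15, and for 10.3% of tested genes. The CCAAT box bound by NF-Y was present for 20 mitosis genes (74.1%) and 12 replication genes (57.1%), against 43.5% of tested genes. A kappaB match stood in 1 window of each set, those of Mcm7 and Birc5, against 6.18% of tested genes.

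Among mitosis genes with a window, the CHR core was present for 8 of the 10 that fell and for 12 of the 17 that did not pass. The median log2 fold change was -0.68 for the mitosis genes with the core and -0.87 for those without it. Of all tested genes with the core, 13.0% fell, and of those without it, 11.3%. The CHR variant TTTAAA stood in the windows of 8 mitosis genes (29.6%), 2 of them genes that fell, and of 4 replication genes (19.0%), against 10.8% of tested genes. The CCAAT box was present for 9 of the 10 mitosis genes with a window that fell and for 11 of the 17 that did not pass. The E2F motif was present for 2 of the 5 replication genes that fell, Mcm6 and Lig1, and for 7 of 16 that did not pass. Neither member with a kappaB match fell; of all tested genes, 19.1% of those with a kappaB match fell and 11.1% of those without. A match of letters is a description and shows no binding.

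**Figure D2:**
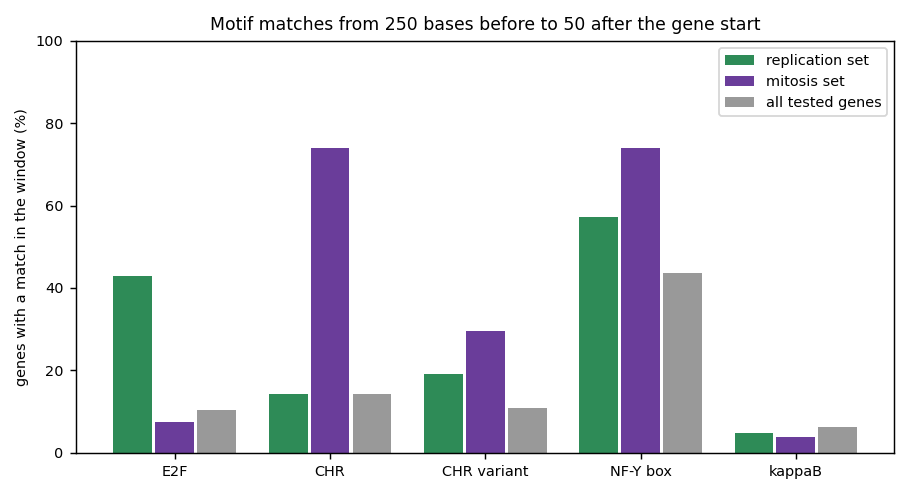
Share of genes, in percent, whose promoter window holds each motif, for the replication set (green), the mitosis set (purple) and all tested genes with a window (grey). The CHR core is present for 74.1% of the mitosis set and the E2F motif for 42.9% of the replication set, while kappaB matches are at or below the 6.18% of tested genes in both sets.

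Of the 6 subunits of the MCM helicase, the ring that unwinds DNA at the fork, 1 fell. Over all tested genes 11.7% fell, and 32.6% had an unadjusted edgeR p below 0.05 in either direction. Here and in the roles below, 0 or 1 call among so few genes does not set a role apart. Mcm6 had 157 and 155 CPM in the P65KO libraries and 237 and 253 CPM in the WT libraries. The 2 P65KO values lay close together and below both WT values. The log2 fold change was -0.65 ± 0.09 (SE, n = 2 libraries per group), a 1.57-fold lower level, with an edgeR adjusted p of 0.000268. Mcm6 was also the member that kept its call in all 12 other settings tried.

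The other MCM subunits assemble with MCM6 into the same ring but were not called. All 6 log2 fold changes were negative, and 3 genes, Mcm6, Mcm3 and Mcm5, had an unadjusted edgeR p below 0.05. Mcm2 had 109 and 104 CPM in P65KO and 106 and 108 CPM in WT, so that its groups overlapped. Its log2 fold change was -0.01, with a 95% interval from -0.21 to 0.20, which leaves out a fall of the size of that of Mcm6. Mcm7 likewise overlapped, at 84.0 and 81.5 CPM in P65KO against 77.3 and 90.2 CPM in WT. Mcm4 had 131 and 140.2 CPM in P65KO against 159 and 136 CPM in WT (edgeR adjusted p = 0.442), and Mcm5 had 135 and 107 CPM against 135 and 166 CPM (edgeR adjusted p = 0.111). Both P65KO values of Mcm3, 129.9 and 95.4 CPM, were below its WT values of 147 and 141 CPM, with an edgeR adjusted p of 0.0723. Per length, Mcm6 averaged 53.8 RPKM (CPM per kilobase) in P65KO and 84.4 RPKM in WT, and the other 5 subunits 31.6 to 39.0 RPKM in P65KO and 31.8 to 49.8 RPKM in WT.

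Of the 6 genes of origin licensing and firing, 0 were called by edgeR, with 1 below an unadjusted p of 0.05, and 0 by DESeq2 and by limma-voom. CDC6 and CDT1 load the helicase, and MCM10, CDC45 and the GINS subunits activate it. Cdc45 had 9.92 and 8.64 CPM in P65KO and 13.5 and 13.8 CPM in WT (edgeR adjusted p = 0.114). Cdc6, Mcm10, Gins1 and Gins2 were also lower in both P65KO libraries than in either WT library, at means of 3.64 to 6.30 CPM in P65KO, where the standard error of the log2 fold change was 0.32 to 0.42. Cdt1 stood the other way, at 42.8 and 43.9 CPM in P65KO against 40.8 and 40.5 CPM in WT, a log2 fold change of 0.09 with a 95% interval from -0.17 to 0.35.

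At the fork, 1 of 5 genes fell. Lig1, the ligase that joins Okazaki fragments, had 45.2 and 36.3 CPM in P65KO and 68.2 and 54.9 CPM in WT. Both P65KO values lay below both WT values, and the level was 1.51-fold lower (log2 fold change -0.59 ± 0.14, edgeR adjusted p = 0.0108). The sliding clamp Pcna overlapped fully, at 159 and 130.4 CPM in P65KO against 133 and 159 CPM in WT. Its log2 fold change was -0.01, with a 95% interval from -0.27 to 0.25. Pola1 and Prim1, which prime new strands, and the flap nuclease Fen1 were below WT in both P65KO libraries, by 1.18-fold to 1.35-fold, and did not pass.

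Deoxynucleotide supply held 3 of the 5 falls of the replication set, where 11.7% of all tested genes fell. Of its 5 genes, limma-voom called 3 lower and DESeq2 0, against 11.5% and 6.54% of tested genes. Rrm1, the large subunit of ribonucleotide reductase, had 115 and 90.8 CPM in P65KO and 132 and 145.5 CPM in WT. Rrm2, the small subunit made in S phase, had 41.2 and 25.9 CPM in P65KO and 47.3 and 53.4 CPM in WT. In both genes P65KO replicate 2 was the lowest library and the groups did not overlap, with log2 fold changes of -0.43 ± 0.12 for Rrm1 and -0.58 ± 0.18 for Rrm2 (edgeR adjusted p = 0.0213 and 0.038). Tk1, the thymidine salvage kinase of S phase, had 14.3 and 8.19 CPM in P65KO and 17.2 and 23.9 CPM in WT. It fell 1.82-fold, with an edgeR adjusted p of 0.0353. Its log2 fold change of -0.86 became -1.32 without P65KO replicate 1 and -0.52 without P65KO replicate 2, where the call was lost. Tk1 lost its call in 6 of the 12 other settings, DESeq2 among them (DESeq2 adjusted p = 0.150). Tyms, the thymidylate synthase, overlapped at 16.1 and 5.98 CPM in P65KO against 14.5 and 17.6 CPM in WT, and Dut, which removes dUTP, was 1.19-fold lower without passing.

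None of the 3 regulators at the G1/S border passed the test. E2f1, an activator of replication genes, had 7.28 and 6.87 CPM in P65KO and 6.95 and 7.10 CPM in WT. Its fold change was near 1, but its 95% interval on the log2 scale ran from -0.61 to 0.63. Ccne1, cyclin E1 and partner of CDK2, had 13.2 and 8.42 CPM in P65KO against 6.51 and 9.04 CPM in WT, and Ccne2 had 3.09 and 2.21 CPM against 2.17 and 6.24 CPM. In each of the 3 genes the groups overlapped, 0 were called by edgeR, DESeq2 or limma-voom, and 0 had an unadjusted p below 0.05.

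**Figure D3:**
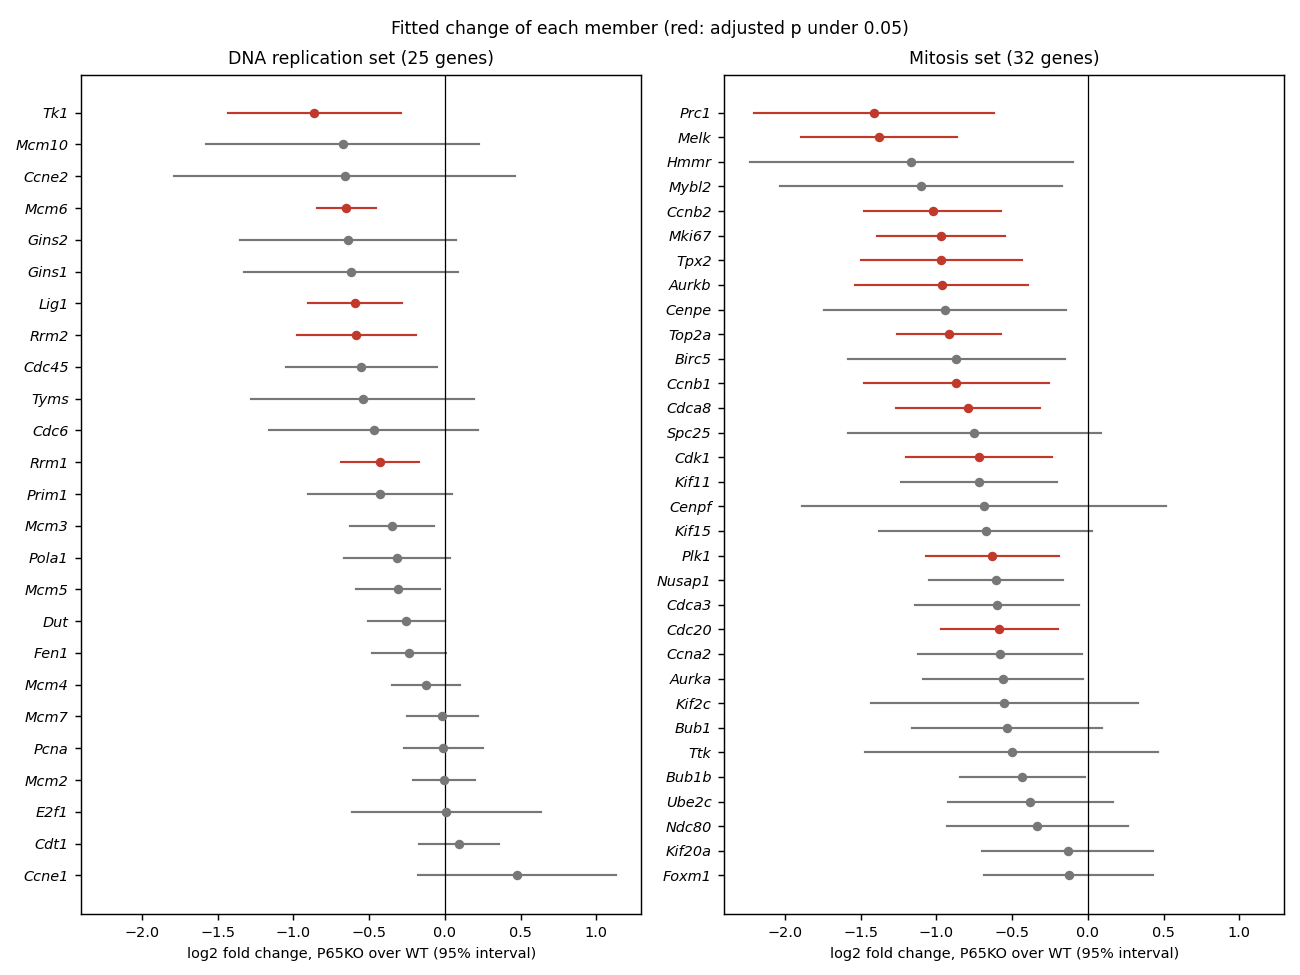
Fitted log2 fold change of each gene, P65KO over WT, with its 95% interval, for the replication set (left) and the mitosis set (right), ordered from the largest fall. Red marks the genes that fell and grey the rest. All 32 mitosis genes and 22 of the 25 replication genes lie below 0, against 49.8% of all tested genes.

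In the mitosis set all 32 log2 fold changes were negative, from -1.41 to -0.13, and in 24 genes both P65KO libraries were below both WT libraries. The replication set had 15 such genes among 25, and all tested genes had 30.9%. The opposite order, both P65KO libraries above both WT libraries, was found in 29.7% of tested genes, in 0 mitosis genes and in 1 replication gene, Cdt1.

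The chromatin genes Mki67 and Top2a, textbook marks of dividing cells, both fell. Mki67, which encodes the Ki-67 antigen of dividing cells, had 29.99 and 17.7 CPM in P65KO and 45.6 and 47.8 CPM in WT. Top2a, the topoisomerase that untangles sister chromatids, had 61.1 and 39.6 CPM in P65KO and 91.2 and 98.8 CPM in WT. In both genes the WT libraries lay close together, P65KO replicate 1 lay below them and P65KO replicate 2 lower still. The log2 fold changes were -0.97 ± 0.19 for Mki67 and -0.91 ± 0.16 for Top2a (edgeR adjusted p = 0.00355 and 0.00132).

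Of 8 mitotic cyclins and kinases, 5 fell, where 11.7% of all tested genes fell. Limma-voom called 5 of the 8 lower and DESeq2 2, against 11.5% and 6.54% of tested genes. Cdk1, the kinase that starts mitosis, had 17.0 and 10.4 CPM in P65KO and 21.5 and 23.7 CPM in WT. Ccnb2, one of its cyclins, had 14.3 and 12.0 CPM in P65KO and 22.1 and 31.4 CPM in WT. The groups were apart in both genes, by 1.65-fold for Cdk1 (edgeR adjusted p = 0.0378) and 2.03-fold for Ccnb2 (edgeR adjusted p = 0.00393). Melk, a kinase made in dividing cells, had 6.62 and 7.31 CPM in P65KO and 15.8 and 20.4 CPM in WT. Here the 2 P65KO libraries lay at nearly the same level, replicate 2 slightly above replicate 1. Its fall was 2.60-fold (log2 fold change -1.38 ± 0.24, edgeR adjusted p = 0.00133). Ccnb1 and Plk1, the other B-type cyclin and the Polo kinase of mitotic entry, fell 1.83-fold and 1.55-fold. Ccna2, the cyclin of S phase and G2, was split by its P65KO libraries: 39.5 and 18.6 CPM in P65KO against 39.1 and 47.8 CPM in WT (edgeR adjusted p = 0.127).

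The chromosomal passenger complex, which corrects faulty attachments of chromosomes to the spindle, was lower in all of its 3 listed genes, of which 2 fell. Over all tested genes 11.7% fell. Limma-voom called 2 of the 3 lower and DESeq2 0, against 11.5% and 6.54% of tested genes. The kinase of the complex, Aurkb, had 13.5 and 7.53 CPM in P65KO and 17.6 and 23.4 CPM in WT. The groups were apart, with a log2 fold change of -0.97 ± 0.26 and an edgeR adjusted p of 0.0204. Cdca8, which encodes borealin, fell 1.73-fold. Birc5, which encodes survivin, had 19.9 and 7.31 CPM in P65KO against 20.4 and 29.3 CPM in WT, and its P65KO replicate 1 lay just below WT replicate 1 (edgeR adjusted p = 0.084).

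Of the 8 kinesin and spindle genes, 2 fell, where 11.7% of all tested genes fell. Limma-voom called 3 of the 8 lower and DESeq2 1, against 11.5% and 6.54% of tested genes. Prc1, which bundles microtubules at the midzone, had 11.2 and 3.32 CPM in P65KO and 18.2 and 20.7 CPM in WT. Tpx2, which activates Aurora A on the spindle, had 15.9 and 8.64 CPM in P65KO and 21.9 and 26.0 CPM in WT. Neither gene overlapped, and in both the P65KO libraries were further apart than the WT libraries. Prc1 fell 2.66-fold (log2 fold change -1.41 ± 0.36, edgeR adjusted p = 0.0153), and Tpx2 fell 1.95-fold (edgeR adjusted p = 0.0143). The log2 fold change of Prc1 was -2.54 without P65KO replicate 1 and -0.79 without P65KO replicate 2, where the call was lost. Prc1 lost its call in 4 of the 12 other settings and kept it with DESeq2 (DESeq2 adjusted p = 0.0255). The motor Kif11 (edgeR adjusted p = 0.0506) and the microtubule binder Nusap1 (edgeR adjusted p = 0.0547) stood just outside the threshold. Nusap1 had 22.1 and 14.6 CPM in P65KO against 24.96 and 30.8 CPM in WT. Hmmr, a spindle protein gene, had WT libraries far apart, with 5.95 and 3.54 CPM in P65KO against 4.77 and 16.6 CPM in WT.

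Of the 6 kinetochore and checkpoint genes, 0 were called by edgeR, DESeq2 or limma-voom, while 2 had an unadjusted p below 0.05 in edgeR. The checkpoint kinase gene Bub1b had 24.7 and 17.1 CPM in P65KO and 26.0 and 30.3 CPM in WT. The groups did not overlap, and the log2 fold change of -0.43 ± 0.19 had an edgeR adjusted p of 0.133. Bub1, Spc25 and Cenpe were likewise below WT in both P65KO libraries, whereas Ndc80 and Cenpf overlapped. Among the 3 genes of the anaphase-promoting complex and its partners, its activator Cdc20 fell (log2 fold change -0.59), at 14.8 and 16.2 CPM in P65KO against 21.5 and 24.96 CPM in WT, and Ube2c and Cdca3 did not pass.

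Of the 2 transcription factors of mitotic genes, 0 passed in edgeR, DESeq2 or limma-voom, and 1 had an unadjusted p below 0.05 in edgeR. Foxm1 had 15.4 and 9.30 CPM in P65KO and 12.6 and 14.4 CPM in WT, overlapping, with a 95% interval on the log2 scale from -0.69 to 0.43. Mybl2, which encodes B-MYB, had 1.99 and 2.21 CPM in P65KO against 3.91 and 5.16 CPM in WT, a 2.15-fold lower level with an edgeR adjusted p of 0.0913.

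Summed over the 32 mitosis genes, the P65KO libraries held 485 and 301 CPM and the WT libraries 603 and 710.3 CPM, a ratio of the means of 0.598. Summed over the 25 replication genes, the P65KO libraries held 1392 and 1210 CPM and the WT libraries 1548 and 1639 CPM, a ratio of 0.816. Both sums had the same order of libraries, with P65KO replicate 2 lowest and WT replicate 2 highest. The mitosis sum per replication sum was 0.348 and 0.249 in P65KO and 0.390 and 0.433 in WT. The P65KO mean of that quotient was 0.725 times the WT mean, and 0.750 times without Mki67 and Top2a. Of the mean replication sum of 1593 CPM in WT, the 6 MCM subunits held 877.5 CPM and Pcna 145.7 CPM. Abundant genes therefore weigh most in the quotient, which was not computed without these replication genes. With 2 libraries per group an exact permutation test cannot reach 0.05, so no p is given: the quotient averaged 0.298 ± 0.070 in P65KO and 0.411 ± 0.031 in WT (SD, n = 2 each).

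**Figure D4:**
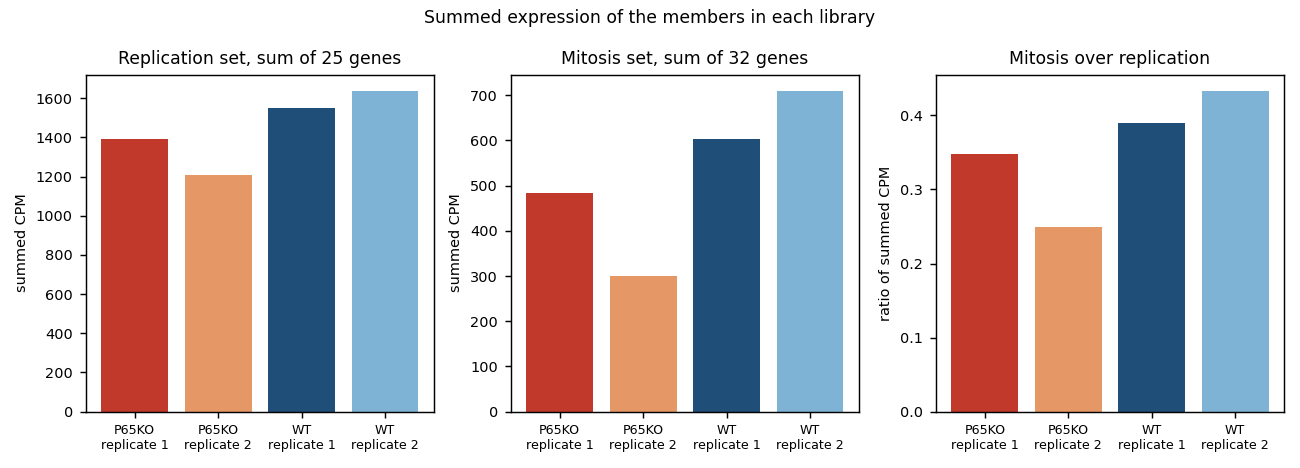
Summed CPM of the 25 replication genes (left) and of the 32 mitosis genes (middle), and the mitosis sum divided by the replication sum (right), in each library, with bars from 0. Each P65KO bar lies below both WT bars in all 3 panels, and P65KO replicate 2 is the lowest library, at 1210 CPM, 301 CPM and a quotient of 0.249.

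The 2 P65KO libraries differed from each other over these genes. Replicate 2 was below replicate 1 in 29 of 32 mitosis genes and 23 of 25 replication genes, against 50.2% of tested genes, with a median log2 ratio of -0.67 and -0.31. WT replicate 2 was above WT replicate 1 in 25 mitosis and 17 replication genes, against 49.9% of tested genes, with a median log2 ratio of 0.23 and 0.12. P65KO replicate 1, the higher of its pair here, was also the library with the most myeloid and dendritic RNA. Those genes summed to 1330 CPM there and to 489 CPM in P65KO replicate 2. Whether the 2 differences are linked was not tested.

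The count of calls moved with the tool and the libraries used. DESeq2 called 5 mitosis and 1 replication genes lower (6.54% of tested genes), limma-voom 13 and 5 (11.5%), and edgeR with no filter on low counts 1 and 1 (3.24%). Without P65KO replicate 1, 18 mitosis and 7 replication genes fell (8.96% of tested genes). Without P65KO replicate 2, 3 mitosis genes, Melk, Mki67 and Top2a, and 1 replication gene, Mcm6, fell (6.97% of tested genes). Without WT replicate 1, 2 and 1 fell (4.36% of tested genes), and without WT replicate 2, 0 and 1 (4.27% of tested genes). In that case 31 of the 32 mitosis genes had a log2 fold change below 0, with a median of -0.59, against 0.01 for all tested genes. The medians stayed negative throughout, from -1.11 to -0.38 in the mitosis set and from -0.61 to -0.20 in the replication set.

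**Figure D5:**
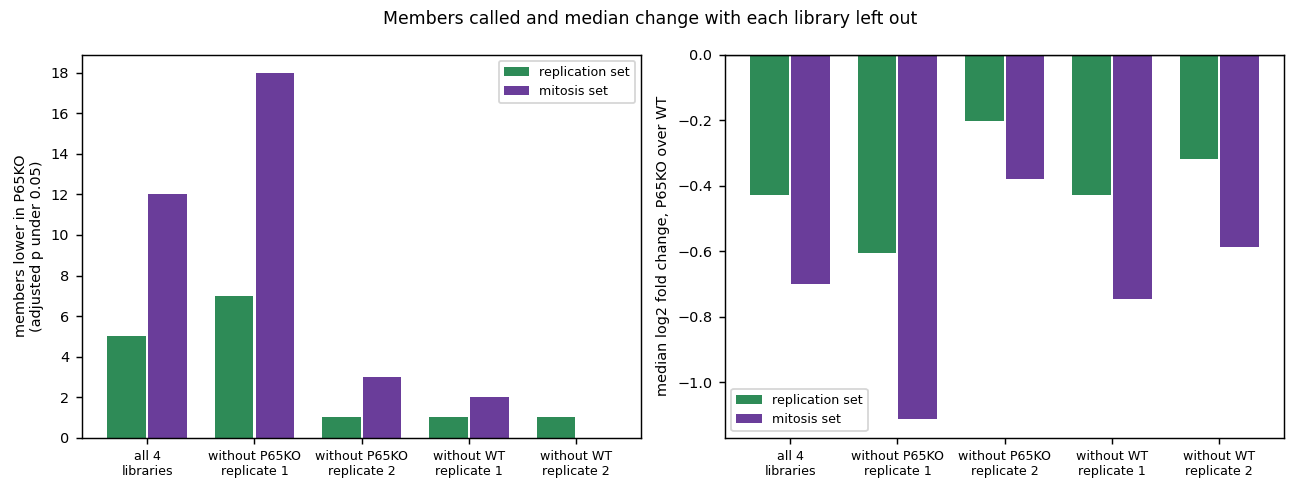
Number of genes that fell (left) and median log2 fold change, P65KO over WT (right), with all 4 libraries and with each library left out, for the replication set (green) and the mitosis set (purple). The mitosis count runs from 18 without P65KO replicate 1 to 0 without WT replicate 2, while both medians stay below 0 in each setting.

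Beyond the 57 genes, 11 lists of related genes gave 179 tested genes, of which 25 fell (14.0%) and 9 rose (5.03%), against 11.7% and 9% of all tested genes. A count of falls in a list below is near that background where its share is close to 11.7%. The other kinesin, spindle and cytokinesis genes had the most falls, 7 of 19 (36.8%) with 0 rises, and a median log2 fold change of -0.87. Kif14, a motor of cytokinesis, had 3.09 and 1.33 CPM in P65KO and 6.08 and 6.24 CPM in WT. Kif4, a chromosome motor on the X chromosome, had 3.09 and 2.44 CPM in P65KO and 6.51 and 8.39 CPM in WT. In both genes the groups were apart, with log2 fold changes of -1.47 ± 0.44 and -1.42 ± 0.37 (edgeR adjusted p = 0.0315 and 0.0156). Other mitotic kinases, phosphatases and regulators of the anaphase-promoting complex had 3 falls among 16 (18.8%). They included the CDK-activating phosphatase Cdc25b, at 76.8 and 68.2 CPM in P65KO against 129 and 134 CPM in WT, and the centrosome kinase Nek2, which fell 2.04-fold.

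Of 25 other kinetochore and centromere genes, 2 fell (8%, below the 11.7% of all tested genes), Cenpa, the histone H3 variant of centromeres, 1.61-fold and Zwint 1.40-fold. Of 16 condensin, cohesin and separase genes, 2 fell (12.5%, near that share), Ncapg2, a subunit of condensin II, 1.77-fold and Ncapd2, of condensin I, 1.36-fold. Of 8 proliferation-associated chromatin and tubulin genes, 1 fell (12.5%), the DNA-bending factor Hmgb2, with 29.8 and 12.2 CPM in P65KO against 41.7 and 45.6 CPM in WT. The medians of these lists were -0.42, -0.15 and -0.12.

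On the replication side, of 24 polymerases, clamp loaders and replication chromatin genes, 4 fell (16.7%), with a median log2 fold change of -0.16. They included Chaf1a, which places histones behind the fork, 1.72-fold lower, and the polymerase delta subunit Pold3, 1.59-fold lower. Of 19 origin complex and firing factors 1 fell (5.26%), Ticrr, needed for firing, at 3.97 and 1.77 CPM in P65KO against 8.46 and 8.82 CPM in WT. In the same list Mcmbp, which binds MCM subunits, rose 1.39-fold, at 165.4 and 165.2 CPM in P65KO against 114 and 124 CPM in WT. Of 13 further nucleotide synthesis genes 1 fell (7.69%), the salvage kinase Dck, 1.25-fold. Of 17 E2F, Rb and DREAM regulators 3 fell (17.6%), among them Rbl2 (p130), the pocket protein of the repressive DREAM complex, at 131 and 144 CPM in P65KO against 235 and 229 CPM in WT. The activator E2f3 fell 1.66-fold.

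Genes tied to quiescence had 4 rises (33.3%) and 0 falls among 12, where 9% of all tested genes rose and 11.7% fell. The largest were Klf2, a factor of resting T cells, with 608 and 605 CPM in P65KO against 373 and 338 CPM in WT, and Foxp1, with 231 and 249 CPM against 181 and 149 CPM. The pocket protein Rbl2, placed in another list above, fell. Of 10 tested G1 cyclins, CDKs and CDK inhibitors, 4 rose (40%) and 1 fell (10%). Ccnd1, cyclin D1, had 51.4 and 36.3 CPM in P65KO and 3.47 and 5.16 CPM in WT, a 10.1-fold higher level (edgeR adjusted p = 1.73e-06). Its higher P65KO value was in the library with the most myeloid RNA, the part of which was not tested. Cdkn2c, the CDK4 and CDK6 inhibitor p18, fell 2.56-fold, at 9.04 and 8.42 CPM in P65KO against 19.1 and 25.6 CPM in WT.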

How the data were processed

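Per the labels' protocols, libraries came from RNeasy Plus Mini RNA by way of a TruSeq RNA kit. Subread, featureCounts and limma were used on GRCm38 (mm10), per the submitters' processing notes; the sources used here give no version of these tools, no annotation, no strand setting and no role for limma, so genes that overlap others are uncertain. The authors deposited whole-number counts per Entrez gene. The authors also deposited log2 RPKM values, which hold the same counts per length and library total with no scaling between libraries; gene lengths were read from them. Rows with no symbol, 0.453% to 0.562% of a library's counts, stayed in the fit. No value column was left unused.

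From the counts, low genes were dropped by filterByExpr, libraries were scaled by TMM and the groups compared with edgeR 4.0.16 in R 4.3.3 (quasi-likelihood F test, two-sided, Benjamini-Hochberg, threshold 0.05). CPM and RPKM values are scaled by TMM. Other settings were DESeq2 1.42.0, limma-voom (limma 3.58.1), other scalings and filters, a replicate block and leaving out each library. A count of 3 corresponds to 0.646 to 0.664 CPM, and such floors cover counting error only. Within both groups the replicates differed beyond sampling noise, with chi-square values per degree of freedom of 3.97 in P65KO and 3.49 in WT.

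The members and the related and marker lists were chosen with earlier results of these data known. Genes are named with values where they are textbook markers (Mki67, Top2a, Cdk1, Pcna, Mcm2, Rrm2), among the 6 largest changes past the threshold in their set, among the 3 most abundant of their set that did not pass, or among the 2 largest called changes of a related list; further members are given to account for every role, and Kif11 was named after its value was seen. Coordinates and promoter windows come from RefSeq (GRCm38.p6), matched by Entrez identifier. Windows were used for 48 of the 57 members. Motifs searched on both strands were E2F (TTTNNCGC), CHR (TTTGAA, and TTTAAA as a variant), CCAAT and the kappaB consensus, and matches may overlap one another.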

Additional observations from a re-analysis of the deposited data

How the results depend on the processing

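Each of the 57 genes was refitted under 12 other settings. Mcm6 kept its call in all 12, Melk lost it in 1, and Mki67, Top2a and Ccnb2 in 3; the other 12 genes that fell lost theirs in 4 to 6. No gene of the 57 was called higher in any of these settings. With no filter on low counts, 1 gene fell in each set, and 9 related genes and 771 of all genes were called. With DESeq2, 1 replication gene and 5 mitosis genes fell, and 14 related genes and 1318 of all genes were called. With a filter at 1 CPM in 2 libraries, 3 replication genes and 9 mitosis genes fell, against 10.2% of tested genes. The cause was not tested. With RLE scaling, library totals alone and limma-voom, 5 to 6 replication genes and 12 to 14 mitosis genes fell. Of all tested genes, 11.5%, 13.3% and 11.5% fell in these 3 settings. Library totals alone gave the 14 mitosis genes, moved the median of all genes to -0.04 and put E2f1 below 0.

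Leaving out 1 library gave 1 to 7 replication genes and 0 to 18 mitosis genes that fell, 10 to 42 related genes called and 743 to 1633 genes called in all. The mitosis median ran from -1.11 to -0.38 and the quotient of mitosis to replication sums, P65KO over WT, from 0.605 to 0.846. The log2 fold change of Mcm2 ran from -0.037 to 0.026, positive without P65KO replicate 2 (0.026) and without WT replicate 2 (0.0085). That of Pcna ran from -0.16 to 0.13, positive without P65KO replicate 2 (0.12) and without WT replicate 2 (0.13). Neither gene was called in any setting.

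With the replicate number as a block, 6 replication genes and 18 mitosis genes fell, against 11.8% of tested genes, and 41 related genes and 2319 of all genes were called. Same-numbered libraries deviated against each other (correlation of deviations -0.137 over 11172 genes), so the numbers are not taken as pairs. With the pairing crossed, a setting chosen after seeing the data, 7 and 18 genes fell, against 14.2% of tested genes. There 53 related genes and 2973 of all genes were called. The standard errors of the mitosis set (median 0.25 on the log2 scale, median level 14.1 CPM) were larger than those of the replication set (0.16, 42.0 CPM); the mitosis genes also differed more between the P65KO libraries (median log2 ratio -0.67 against -0.31), and the part of depth was not tested.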
